A study of Mus musculus with 9 samples.

Results

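The genes described here are 10 enzymes and accessory proteins that make prostaglandins, thromboxane and leukotrienes, namely Pla2g4a, Ptgs1, Ptgs2, Ptges, Hpgds, Tbxas1, Alox5ap, Alox5, Lta4h and Ltc4s. They were taken by symbol from the 53465 genes of the table of raw read counts, where each symbol has a single row. All 10 passed the filter on low counts, which kept 11950 genes in all. RNA was sequenced from 9 libraries of bone marrow-derived macrophages (BMDM), grown for 5 to 10 days from the marrow of male wild-type C57BL/6 mice (C57bl6/J in the methods) with the macrophage growth factor CSF1 at 50 ng/ml. In 3 libraries the BMDMs were left untreated (UNX), 3 received medium conditioned by adventitial fibroblasts from the pulmonary arteries of control calves (CO-CM), and 3 received medium from fibroblasts of calves with hypoxia-induced pulmonary hypertension (PH-CM). The treatment time is given as 16 h, 24 h or 18 h in different places of the labels and methods. Media of 5 fibroblast populations were pooled for each kind, which makes the replicates repeats of the macrophage culture and not of the calf, and the donors of the medium were cattle whereas the macrophages were from mice. The comparisons ask how medium from either kind of fibroblast, and from diseased rather than control fibroblasts, changes the macrophages. No group received medium that had not been conditioned by fibroblasts. The fibroblasts were grown in bovine calf serum and their media were supplemented with fetal bovine serum, whereas UNX was left untreated. In the comparisons with UNX, fibroblast products therefore cannot be told apart from the change of medium and serum.

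Prostaglandins, thromboxane and leukotrienes are short-lived lipid mediators made from arachidonic acid, which phospholipase A2 frees from membrane phospholipids. Cyclooxygenases turn the freed acid into prostaglandin H2, and terminal synthases turn that into prostaglandin E2, prostaglandin D2 or thromboxane A2. In the other branch 5-lipoxygenase, which is handed its substrate by its activating protein, makes leukotriene A4, which becomes either leukotriene B4 or the cysteinyl leukotriene C4. Macrophages are a known source of all of these, and the mediators act on vessel tone, vascular permeability, platelets and leukocytes.

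The libraries held between 62017933 and 84314201 counted reads. Levels are given as CPM, counts relative to the library size scaled by the TMM factors of edgeR, or as the deposited RPKM, relative to exon length and the unscaled library total, where genes are compared with each other. FDR stands for the Benjamini-Hochberg adjusted p of edgeR's quasi-likelihood test over the 11950 genes, and calls require an FDR no higher than 0.05 together with a change of 1.2-fold or more. All 8 macrophage markers examined passed the filter, and their summed CPM ran from 11820 to 12610 in UNX, from 19010 to 19970 in CO-CM and from 21460 to 23270 in PH-CM. The markers did not all move with this sum. In PH-CM against UNX 7 of the 8 were called higher (31.3% of all genes). In CO-CM against UNX 5 were called higher (28.0%) and 1 lower (28.9%), which was Cd14 at a log2 fold change of -0.82 (FDR 1.77e-05). Of 8 mast cell markers only Kit passed, and Tpsb2, Mcpt4, Cma1, Fcer1a and Ms4a2 had no read in any library. Of 8 neutrophil markers only S100a8 passed and Ly6g had no read, and the 8 summed to between 1.99 and 3.02 CPM in UNX, 3.19 and 4.51 in CO-CM and 2.62 and 3.96 in PH-CM. None of 4 dendritic cell markers passed. The fibroblast markers summed to between 193.8 and 245.1 CPM in UNX, 261.7 to 313.8 in CO-CM and 243.6 to 331.2 in PH-CM. Of 7 megakaryocyte and platelet markers Pf4 and Ppbp passed and Gp6 had no read, and their sum, nearly all of it Pf4, ran from 149.5 to 174.2 CPM in UNX, 107.6 to 135.5 in CO-CM and 221.7 to 273.5 in PH-CM. Macrophages also express Pf4, and S100a8 in some states, so neither marks another cell type alone.

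Medium from hypertensive fibroblasts was followed by a rise of Ptgs2 and a smaller rise of Ptges, beside a fall of Pla2g4a and Alox5. Ptges, Pla2g4a and Alox5 were called in the same directions under control medium, whereas Ptgs2 was not called there. Of the 10 genes, 6 were called in PH-CM against UNX, where 63.0% of all genes tested were called, so the number called is not a mark of this group. They divided into 3 higher (Ptgs2, Ptges and Alox5ap, against 31.3% of all genes) and 3 lower (Pla2g4a, Alox5 and Hpgds, against 31.7%), and the median log2 fold change of the 10 was -0.06 against 0.01 over all genes tested (0.00 and -0.01 in the comparisons that follow). In CO-CM against UNX 4 were called, with 57.0% of all genes called. These were 2 higher (Ptges and Tbxas1, against 28.0% of all genes) and 2 lower (Pla2g4a and Alox5, against 28.9%), with a median of 0.00. In PH-CM against CO-CM 4 were called, with 27.1% of all genes called, and these were Ptgs2, Alox5 and Alox5ap (higher, against 12.2% of all genes) and Tbxas1 (lower, against 15.0%), with a median of -0.03. The groups did not overlap in CPM for 8 of the 10 in PH-CM against UNX, 5 in CO-CM against UNX and 7 in PH-CM against CO-CM, where the shares of all genes were 77.7%, 72.0% and 50.2%. The 3 comparisons share libraries, each group entering 2 of them, so they are set side by side and are not independent. In RNA of a whole culture, fewer cells that express a gene and less RNA per cell cannot be told apart.

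**Figure D1:**
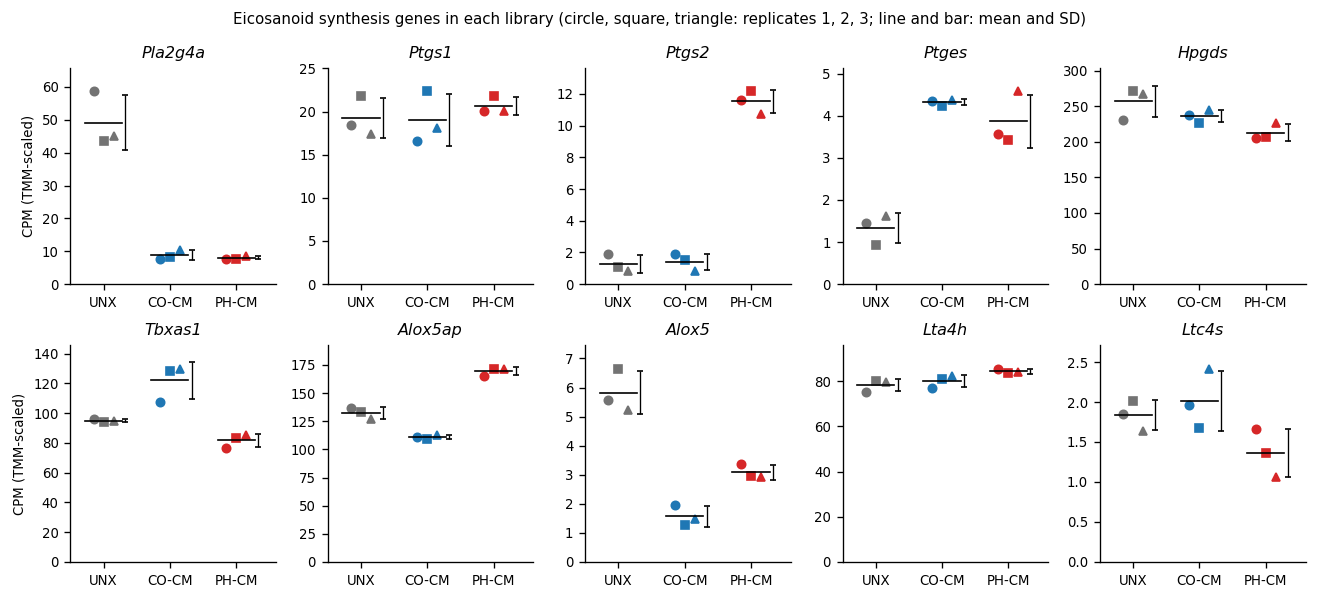
Level of each gene (CPM, linear axes from 0) in each of the 9 libraries, with circles, squares and triangles for replicates 1, 2 and 3, a line at the group mean and a bar for the SD. Ptgs2 lies between 10.8 and 12.2 CPM in PH-CM and at or under 1.91 CPM in the other 6 libraries, and Pla2g4a lies at or above 43.6 CPM in UNX and at or under 10.5 CPM in the treated libraries.

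The first step, release of arachidonic acid, is the work of cytosolic phospholipase A2, encoded by Pla2g4a. Its level in UNX was 58.8, 43.6 and 45.1 CPM in replicates 1, 2 and 3, in CO-CM 7.68, 8.29 and 10.5 CPM, and in PH-CM 7.65, 7.79 and 8.61 CPM. Every treated library was far below every untreated library, and the ranges of the treated groups overlapped. Pla2g4a fell by 2.62 on the log2 scale in PH-CM against UNX (SE 0.14, FDR 6.25e-08), which is 6.13-fold. It fell by 2.48 in CO-CM against UNX (SE 0.14, FDR 1.3e-07). Between PH-CM and CO-CM the difference was -0.14, with a 95% confidence interval from -0.45 to 0.18 (FDR 0.48).

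Pla2g4a and Ptgs2 are neighbours in the genome. Pla2g4a lies at chr1:149829618-149961290 on the minus strand and Ptgs2 at chr1:150100031-150108227 on the plus strand (GRCm38), so they are read away from each other. Their starts are separated by 138740 bases that hold 3 annotated genes, none of them protein-coding, which together had 10 reads in the 9 libraries. The 10 genes lie on 6 chromosomes in all. The promoters of these neighbours are shown because Ptgs2 had the largest rise and Pla2g4a the largest fall of the 10 in PH-CM against UNX. Each sequence is the 250 bases before the annotated start, 5′ to 3′ on the strand of the gene, from RefSeq on GRCm38.p6. For Ptgs2 this is chr1:150099781-150100030 on the plus strand, and for Pla2g4a chr1:149961291-149961540 on the minus strand. Capitals mark a GC box (GGGCGG), a short motif of many promoters.
Ptgs2 promoter: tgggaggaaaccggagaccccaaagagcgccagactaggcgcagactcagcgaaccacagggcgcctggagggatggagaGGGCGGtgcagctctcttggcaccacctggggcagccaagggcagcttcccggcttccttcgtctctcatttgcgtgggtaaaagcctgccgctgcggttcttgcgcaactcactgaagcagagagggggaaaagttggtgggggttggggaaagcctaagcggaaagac
Pla2g4a promoter: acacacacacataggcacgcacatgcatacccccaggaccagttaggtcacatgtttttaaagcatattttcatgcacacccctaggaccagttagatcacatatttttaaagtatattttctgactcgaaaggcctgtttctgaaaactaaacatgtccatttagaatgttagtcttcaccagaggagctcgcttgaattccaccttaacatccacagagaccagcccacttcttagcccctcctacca

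The Ptgs2 window had a GC content of 61.6% and the Pla2g4a window one of 43.2%. Both strands were searched for the E-box (CACGTG), the half-site of the cyclic AMP response element (TGACG), the GC box (GGGCGG), AP-1 (TGANTCA), the CCAAT box (CCAAT), PU.1 (AGGAAGT), the TATA box (TATAAA) and the NF-kB motif. In the Ptgs2 window the only match was the GC box, 170 to 165 bases before the start, which 32.7% of all 32851 promoter windows also hold, and the Pla2g4a window shown had no match. Just past the annotated start of Ptgs2 the same search, extended to the 50 bases that follow it, found an E-box at bases 17 to 22 and an overlapping half-site of the cyclic AMP response element at bases 14 to 18. Among all windows extended by these 50 bases, 7.15% hold the E-box and 20.8% the half-site. Pla2g4a has a second RefSeq start 38851 bases into the gene, and the counts do not tell which start was used. The window of that start held PU.1 at 14 to 8 bases and a TATA box at 200 to 195 bases before it, both on the opposite strand, which 7.69% and 12.4% of all windows hold, and a CCAAT box at bases 10 to 14 after it. RefSeq windows were found for 9 of the 10 genes, and Alox5ap had no entry. A GC box was found before the start of 3 of the 9, namely Ptgs2, Ptges and Alox5.

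The cyclooxygenases Ptgs1 and Ptgs2 catalyse the same reaction, and Ptgs2 is known as the inducible form. Ptgs2 stood at 1.91, 1.09 and 0.815 CPM in UNX, at 1.87, 1.497 and 0.843 CPM in CO-CM and at 11.6, 12.2 and 10.8 CPM in PH-CM. The 3 PH-CM libraries lay above the other 6, while the UNX and CO-CM ranges nearly coincided. Ptgs2 was 9.21-fold higher in PH-CM than in UNX, a log2 fold change of 3.20 (SE 0.30, FDR 4.05e-06), and 8.22-fold higher than in CO-CM, a log2 fold change of 3.04 (SE 0.30, FDR 3.13e-05). In CO-CM against UNX the log2 fold change was 0.16 with a 95% confidence interval from -0.56 to 0.89 (FDR 0.669), so a change within that interval could not be told from none. These values rest on 276 Ptgs2 reads in UNX, 288 in CO-CM and 2219 in PH-CM, summed over 3 libraries each. Of 5 fibroblast markers tested, 4 were called higher in PH-CM against UNX (5 with the replicate block), where 31.3% of all genes were, and 2 in CO-CM against UNX (3 with the block), where 28.0% were. Between PH-CM and CO-CM 1 was called higher, Col3a1 at 0.72 (FDR 0.0269), against 12.2% of all genes. Dcn stood at 0.53 there and was called with the block at 0.54 (FDR 0.0274), Pdgfra stood at 0.17, Col1a1 at 0.02 and Col1a2 at -0.06. The tested megakaryocyte and platelet markers, Ppbp and Pf4, were both called higher in PH-CM. Ppbp stood at 3.59 against UNX and 6.0 against CO-CM, and Pf4 at 0.61 and 1.01. Ppbp passed the filter on low counts through PH-CM alone, so that the direction of these differences of Ppbp was set by the filter. The part of the fibroblast, megakaryocyte and platelet markers in the rise of Ptgs2 was not tested.

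Ptgs1, the constitutive cyclooxygenase (chr2:36230426-36252272, plus strand), stood at 18.4, 21.8 and 17.4 CPM in UNX, at 16.6, 22.4 and 18.1 CPM in CO-CM and at 20.07, 21.8 and 20.02 CPM in PH-CM. All 3 ranges overlapped, and it was not called in any comparison. It shares 148 exonic bases with the antisense gene Gm43621, which held 78 reads. The 95% confidence interval of its log2 fold change ran from -0.15 to 0.36 in PH-CM against UNX, from -0.27 to 0.24 in CO-CM against UNX and from -0.14 to 0.37 in PH-CM against CO-CM. The share of Ptgs2 in the summed RPKM of the 2 cyclooxygenases was therefore 8.08%, 4.06% and 3.82% in UNX, 8.72%, 5.36% and 3.81% in CO-CM, and 32.9%, 32.2% and 31.3% in PH-CM. The difference of the means was 26.8 percentage points for PH-CM against UNX and 26.2 for PH-CM against CO-CM. A two-sided exact permutation test gave p = 0.1 for each of these, the smallest value that 3 libraries against 3 allow (0.15 after adjustment over the 9 shares tested), and p = 0.7 for CO-CM against UNX. Even in PH-CM the RPKM of Ptgs1 exceeded that of Ptgs2, at 5.25 ± 0.223 against 2.49 ± 0.159 (SD, n = 3).

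**Figure D2:**
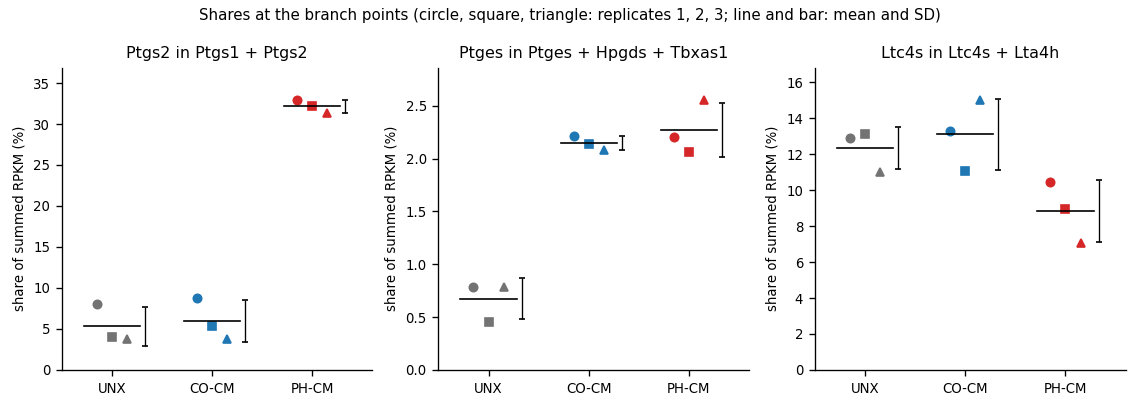
Share of summed RPKM (%, axes from 0) in each library for Ptgs2 among the cyclooxygenases, Ptges among the 3 terminal synthases and Ltc4s among the enzymes that use leukotriene A4, with a line at the mean and a bar for the SD. The Ptgs2 share stands at 31.3% or above in PH-CM and at 8.72% or below elsewhere, whereas the Ptges share is at 2.06% or above in both treated groups and at 0.787% or below in UNX.

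Among the terminal synthases, Ptges (chr2:30889471-30929863, minus strand) encodes the inducible microsomal prostaglandin E synthase. It stood at 1.45, 0.941 and 1.62 CPM in UNX, at 4.34, 4.24 and 4.37 CPM in CO-CM and at 3.57, 3.43 and 4.59 CPM in PH-CM. Every treated library lay above every untreated library, and the CO-CM range fell inside that of PH-CM. Ptges rose 2.88-fold in PH-CM against UNX (log2 fold change 1.53, SE 0.20, FDR 4.03e-05) and 3.22-fold in CO-CM against UNX (1.69, SE 0.19, FDR 2.37e-05). Between PH-CM and CO-CM its log2 fold change was -0.16, with a 95% confidence interval from -0.56 to 0.24 (FDR 0.523). Ptges was thus called higher under either medium. As 1 of its UNX libraries was under 1 CPM, the fit with no filter on low counts is also given, which called it at 1.48 in PH-CM and 1.65 in CO-CM against UNX. Of the fibroblast markers, Col1a1 (0.37 in PH-CM and 0.35 in CO-CM) and Col1a2 (0.46 and 0.52) were called higher in both comparisons with UNX as well, and the neutrophil sum was higher in every CO-CM library than in UNX and overlapped UNX in PH-CM. S100a8, the only neutrophil marker tested, was called higher against UNX in PH-CM (1.37, FDR 2.87e-05) and in CO-CM (1.39, FDR 3.23e-05). Between the media S100a8 stood at -0.02. The part of these markers in the rise of Ptges was not tested.

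Hpgds (chr6:65117293-65144908, minus strand), the hematopoietic prostaglandin D synthase, was by far the most abundant of the 3 terminal synthases. Its level was 231.0, 271.5 and 267.4 CPM in UNX, 237.5, 226.8 and 244.1 CPM in CO-CM, and 205.1, 207.2 and 225.9 CPM in PH-CM. The PH-CM libraries were the lowest, and the UNX and CO-CM ranges overlapped. Hpgds fell by 0.27 on the log2 scale in PH-CM against UNX (SE 0.067, FDR 0.00395). That change is close to the fold change of 1.2 required for a call, and the gene fell short of it with upper-quartile scaling, where the log2 fold change was -0.24, and without UNX replicate 2 or 3 or PH-CM replicate 1 or 2, with values between -0.25 and -0.24. In CO-CM against UNX its log2 fold change was -0.12 (FDR 0.135) and in PH-CM against CO-CM -0.15 (FDR 0.105), neither called.

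Tbxas1, the thromboxane A synthase (chr6:38875404-39084585, plus strand), was highest under CO-CM and lowest under PH-CM. It stood at 96.1, 94.2 and 94.9 CPM in UNX, at 107.6, 128.4 and 130.0 CPM in CO-CM, and at 76.8, 83.3 and 85.3 CPM in PH-CM. The 3 groups did not overlap. The gene shares 144 exonic bases with Gm42962 on the other strand, which held 38 reads. It rose in CO-CM against UNX by a log2 fold change of 0.36 (SE 0.071, FDR 0.00103) and was lower in PH-CM than in CO-CM by a log2 fold change of -0.58 (SE 0.071, FDR 0.000138). In PH-CM against UNX the log2 fold change of -0.22 had an FDR of 0.0171 but did not reach a fold change of 1.2, and it did so only with scaling by library size alone, at -0.28. The Ptges share of the summed RPKM of these synthases was 0.675% ± 0.192 in UNX, 2.14% ± 0.0664 in CO-CM and 2.27% ± 0.254 in PH-CM (SD, n = 3, exact permutation p = 0.1 for either treated group against UNX). The differences from UNX of 1.598 points in PH-CM and 1.47 in CO-CM were 0.909 and 0.811 when taken in CPM, without the correction for length.

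In the leukotriene branch, Alox5ap (chr5:149264767-149288153, plus strand) encodes the 5-lipoxygenase activating protein, which holds arachidonic acid for the enzyme. It had the highest RPKM of the 10 genes in all 9 libraries, and it shares 189 exonic bases with the antisense gene Gm19719, which held 425 reads. Its CPM was 136.8, 133.5 and 126.9 in UNX, 111.1, 109.6 and 112.5 in CO-CM and 165.3, 171.5 and 171.8 in PH-CM, with no overlap between any groups. Alox5ap rose in PH-CM by a log2 fold change of 0.36 against UNX (SE 0.042, FDR 2.14e-05) and of 0.61 against CO-CM (SE 0.042, FDR 2.91e-06). In CO-CM against UNX it was lower by a log2 fold change of -0.25 (SE 0.042, FDR 0.000321), just short of a fold change of 1.2. It was called lower there with scaling by library size alone at -0.32, with no filter or with filterByExpr at -0.29, and without UNX replicate 2 or 3 at -0.26 and -0.30. Pf4, which macrophages also express, made up nearly all of the megakaryocyte and platelet sum and had the same order of groups. Pf4 was called at 0.61 in PH-CM against UNX, 1.01 in PH-CM against CO-CM and -0.39 in CO-CM against UNX. The part of Pf4-expressing cells in the Alox5ap values was not tested.

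Alox5 (chr6:116410077-116461178, minus strand), the 5-lipoxygenase itself, was below its untreated level in both treated groups. It stood at 5.55, 6.65 and 5.24 CPM in UNX, at 1.96, 1.26 and 1.49 CPM in CO-CM, and at 3.36, 2.96 and 2.91 CPM in PH-CM. The groups did not overlap, with UNX the highest and CO-CM the lowest. Alox5 fell by 0.92 on the log2 scale in PH-CM against UNX (SE 0.16, FDR 0.000428) and by 1.89 in CO-CM against UNX (SE 0.17, FDR 4.07e-06). It was higher in PH-CM than in CO-CM by a log2 fold change of 0.97 (SE 0.17, FDR 0.0015). In PH-CM, then, the activating protein was above and the enzyme below its untreated level.

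Leukotriene A4 is turned into leukotriene B4 by the hydrolase Lta4h (chr10:93453411-93484875, plus strand) and into leukotriene C4 by the synthase Ltc4s (chr11:50236461-50238616, minus strand). Lta4h was the most even of the 10 genes, at 75.2, 80.1 and 79.8 CPM in UNX, 77.0, 81.0 and 82.3 CPM in CO-CM and 85.6, 83.6 and 84.1 CPM in PH-CM. Although the PH-CM libraries lay above the others, it was not called in any comparison, and its log2 fold change in PH-CM against UNX was 0.11 (95% confidence interval 0.01 to 0.20, FDR 0.0471). Ltc4s stood at 1.85, 2.01 and 1.64 CPM in UNX, at 1.96, 1.68 and 2.42 CPM in CO-CM, and at 1.67, 1.37 and 1.06 CPM in PH-CM. All 3 PH-CM libraries were below all 3 CO-CM libraries, and the PH-CM and UNX ranges overlapped.

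Ltc4s was not called in any comparison of the main fit. In PH-CM against CO-CM its log2 fold change was -0.56 (95% confidence interval -1.02 to -0.11, FDR 0.0514), and with the replicate number as a block it was -0.57 (FDR 0.0398), which passes the threshold. It also passed with the exact test of edgeR (FDR 0.0227) and with DESeq2 (FDR 0.0331). Further calls came with DESeq2 size factors, upper-quartile factors, no filter or counts divided by 2 (FDR 0.0405 to 0.0496). Without CO-CM replicate 2 (FDR 0.0389) or PH-CM replicate 1 (FDR 0.0316) it was called too. The FDR over all alternatives ran from 0.0227 to 0.188. In PH-CM against UNX the log2 fold change was -0.42 (FDR 0.0825), called only without PH-CM replicate 1, where it was -0.59 (FDR 0.0334). The Ltc4s counts were low, at 413 reads in UNX, 418 in CO-CM and 264 in PH-CM, and 268 bases of its exons overlap those of Gm26542 on the other strand, to which 127 reads were assigned. The Ltc4s share of the summed RPKM of Ltc4s and Lta4h was 12.4% ± 1.17 in UNX, 13.1% ± 1.98 in CO-CM and 8.84% ± 1.72 in PH-CM (SD, n = 3), and a two-sided exact permutation test gave p = 0.1 for PH-CM against either group. The differences of -3.52 points from UNX and -4.29 from CO-CM were -0.702 and -0.866 when taken in CPM. The mast cell list, whose cells are a known source of leukotriene C4, summed to between 1.67 and 3.34 CPM in UNX, 1.73 and 2.36 in CO-CM and 0.298 and 0.459 in PH-CM, most of it Kit. Its part in the Ltc4s values was not tested.

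**Figure D3:**
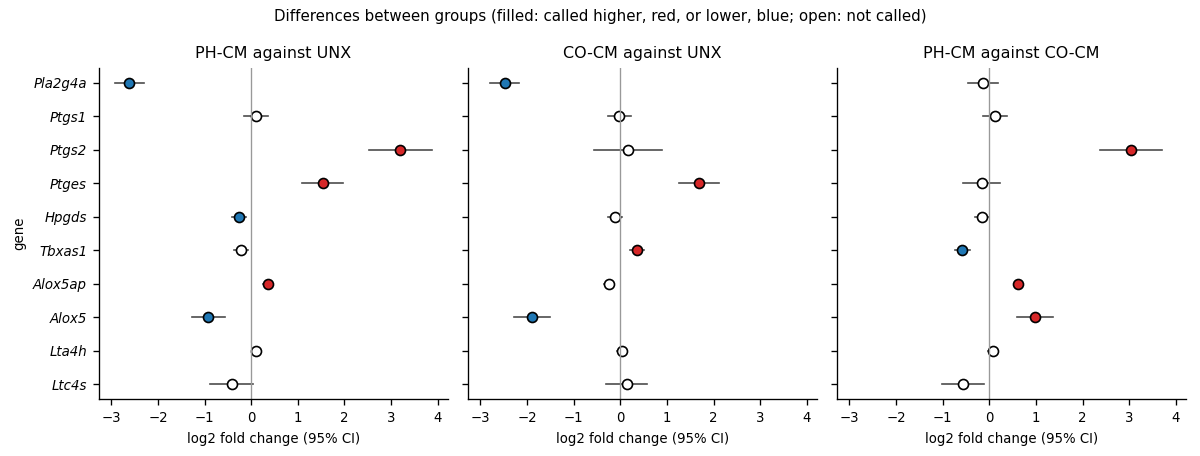
Log2 fold change of each gene in the 3 comparisons, with its 95% confidence interval as a line. Filled points are called, red for higher and blue for lower, and open points are not. The interval of Ptgs2 in PH-CM against UNX runs from 2.53 to 3.87, and Pla2g4a stands at -2.62 and -2.48 in the comparisons with UNX.

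Per length, the 10 genes spanned a wide range, and their order shifted with the medium. In UNX the mean RPKM was 95.9 for Alox5ap, 41.0 for Hpgds, 13.2 for Lta4h, 10.8 for Tbxas1, 7.92 for Pla2g4a, 5.09 for Ptgs1, 1.86 for Ltc4s, 1.46 for Alox5, 0.350 for Ptges and 0.287 for Ptgs2. The ranges of Ltc4s and Alox5, and of Ptges and Ptgs2, overlapped in that order, and the other neighbours did not. In PH-CM Ptgs2 moved from last to the sixth place at 2.49, Pla2g4a moved from the fifth place to the eighth at 1.24, level with Ltc4s at 1.33, and Alox5 came last at 0.742. In CO-CM Pla2g4a also moved down, to rank 7 at 1.35, and Alox5 to rank 9 at 0.376. Ptgs2 stayed last there at 0.301, overlapping Alox5, and Tbxas1 at 13.1 overlapped Lta4h at 12.8. The RPKM of the 10 genes together was 172.7 to 180.9 in UNX, 145.0 to 151.3 in CO-CM and 183.9 to 187.6 in PH-CM, and Alox5ap made up 63.3% to 64.1% of it in PH-CM against 52.7% to 55.7% in UNX and 51.0% to 52.5% in CO-CM.

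**Figure D4:**
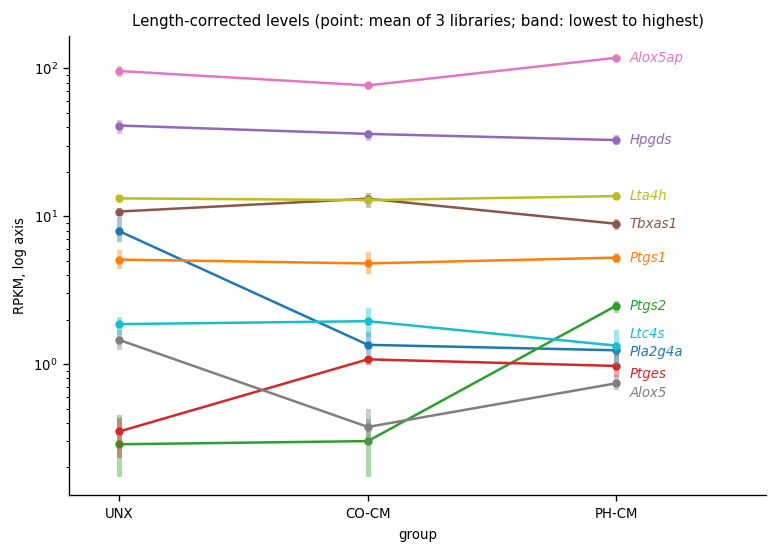
Length-corrected level of each gene (RPKM, log axis) in the 3 groups, with a point at the mean of 3 libraries and a band from the lowest to the highest library. Ptgs2 climbs from 0.287 in UNX to 2.49 in PH-CM, and Pla2g4a drops from 7.92 in UNX to 1.35 in CO-CM and 1.24 in PH-CM.

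The 10 genes did not share a pattern. As a measure of likeness, the root mean square difference of centred log2 CPM over the 9 libraries was taken, for which 0 means the same profile. The closest pair among the 10 was Ptgs1 and Lta4h at 0.129, both nearly flat, and the most distant was Ptgs2 and Pla2g4a at 2.43. Among all genes tested, Ptgs2 was most like Nr4a2, an orphan nuclear receptor (0.303), Fpr2, a formyl peptide receptor (0.356), and Pde3b, a phosphodiesterase (0.356). Fpr2 passed the filter through PH-CM alone, with mean levels of 0.0987 CPM in UNX, 0.137 in CO-CM and 1.04 in PH-CM, so its likeness to Ptgs2 was partly set by the filter. Pla2g4a was most like Ncaph, a condensin subunit (0.115), and Aurka, a mitotic kinase (0.125). Alox5 was most like Idi1, an isomerase of isoprenoid synthesis (0.172), and Hsd17b7, an enzyme of sterol synthesis (0.174). Alox5ap was most like Twf1, an actin-binding protein, at 0.0457.

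The other genes of the pathway were read from 7 lists with 76 symbols, of which 74 were matched and 48 passed the filter. In PH-CM against UNX 35 of the 48 were called, 20 higher and 15 lower, in CO-CM against UNX 32, 21 higher and 11 lower (33 with the replicate block), and in PH-CM against CO-CM 23, 10 higher and 13 lower (24 with the block). The shares of all genes called were 63.0%, 57.0% and 27.1%. The medians of the 48 were 0.08, 0.22 and 0.02. The list of arachidonate release had 9 tested genes, and not all of them encode enzymes that free arachidonic acid. In this list Pla2g7, a secreted phospholipase that inactivates platelet-activating factor, rose from 1.76, 2.62 and 2.19 CPM in UNX to 5.10, 5.09 and 5.50 CPM in CO-CM and 33.5, 41.0 and 38.2 CPM in PH-CM. Its log2 fold change was 4.09 in PH-CM against UNX (FDR 2.02e-09) and 2.84 in PH-CM against CO-CM (FDR 1.13e-07). Anxa1, which encodes annexin A1, an inhibitor of phospholipase A2, fell by 0.85 in PH-CM against UNX (FDR 0.000552). Mgll, the monoacylglycerol lipase, stood at 0.123, 0.424 and 0.512 CPM in UNX, 1.49, 2.71 and 2.78 CPM in CO-CM and 0.580, 0.499 and 0.602 CPM in PH-CM. It passed the filter on low counts through CO-CM alone, so that the direction of its difference from the other groups was set by the filter. Pla2g5, a secreted phospholipase A2, stood at 2.24, 1.32 and 1.4 CPM in UNX, 0.453, 0.479 and 0.731 CPM in CO-CM and 1.34, 2.35 and 1.74 CPM in PH-CM. It passed the filter through UNX and PH-CM, either of which would do so alone, while its CO-CM libraries were all below the filter level. In PH-CM against UNX its log2 fold change was 0.14 (FDR 0.664).

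Reacylation puts arachidonic acid back into phospholipids. Of 8 tested genes 5 were called in PH-CM against UNX (63.0% of all genes), 2 higher and 3 lower, 6 in CO-CM against UNX (57.0%) and 4 in PH-CM against CO-CM (27.1%). Lpcat2, a lysophospholipid acyltransferase that also makes platelet-activating factor, was the largest rise in each comparison, with log2 fold changes of 1.81 in PH-CM against UNX (FDR 3.66e-08), 0.67 in CO-CM against UNX (FDR 6.55e-05) and 1.14 in PH-CM against CO-CM (FDR 6.43e-06). Acsl5 fell by 0.85 in PH-CM (FDR 2.66e-08) and by 0.77 in CO-CM (FDR 8.87e-08) against UNX. Acsl3 fell 3.03-fold in CO-CM against UNX (FDR 1.81e-06) and by 0.69 on the log2 scale in PH-CM against UNX (FDR 0.000531), both genes encoding acyl-CoA synthetases. Acsl1, of the same family, was the largest fall in PH-CM against CO-CM, by 0.32 (FDR 0.00166).

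All 9 tested genes of the list of other synthases were called in PH-CM against UNX (63.0% of all genes), 5 higher (31.3%) and 4 lower (31.7%). Of the 9, 6 were called in CO-CM against UNX (57.0% of all genes) and 5 in PH-CM against CO-CM (27.1%). Mgst2, a microsomal glutathione transferase that can also make leukotriene C4, stood at 0.185, 0.291 and 0.349 CPM in UNX, between 1.65 and 1.92 CPM in CO-CM and at 3.54, 5.38 and 5.25 CPM in PH-CM. It passed the filter through the treated groups, either of which would do so alone, while its UNX libraries were all below the filter level. Between the treated groups it was higher in PH-CM than in CO-CM by a log2 fold change of 1.38 (FDR 0.000389). Mgst3, of the same family, fell by 1.33 in PH-CM against UNX (FDR 1.85e-08) and by 1.19 against CO-CM (FDR 3.88e-07). Ptges3, the cytosolic prostaglandin E synthase and a cochaperone, fell by 0.77 in CO-CM (FDR 1.96e-06) and in PH-CM (FDR 1.4e-06) against UNX, and the difference between the media was 0.00 (95% confidence interval -0.14 to 0.14). Of the other lipoxygenases and epoxide hydrolases only Ephx1 passed the filter, and it fell by 0.85 in PH-CM against UNX (FDR 0.00446) and by 1.23 against CO-CM (FDR 0.00135). Its log2 fold change in CO-CM against UNX was 0.38 (FDR 0.128), called with the replicate block at 0.37 (FDR 0.000288).

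**Figure D5:**
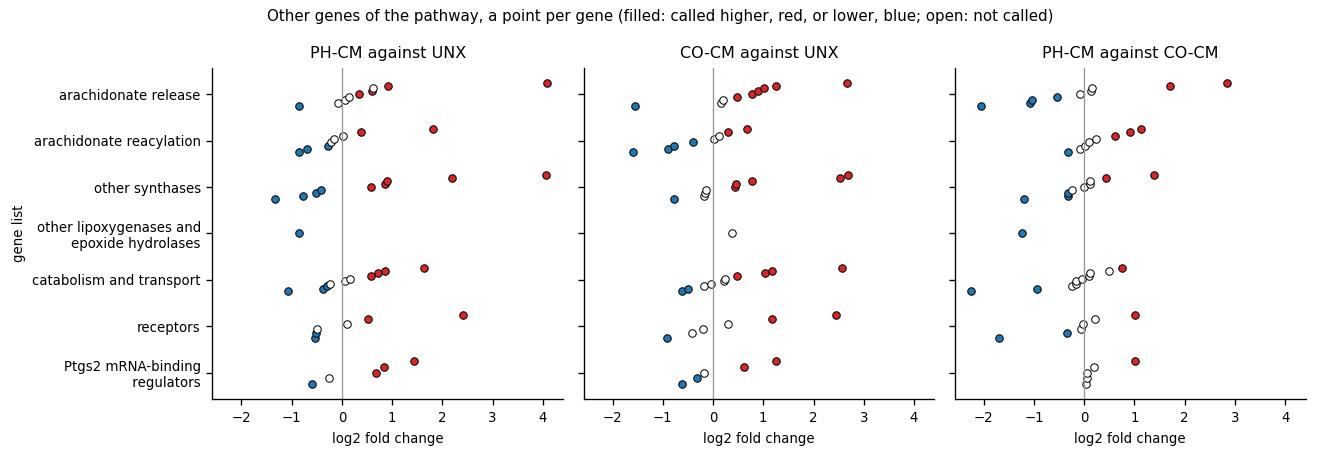
Log2 fold change of the 48 other tested genes of the pathway by list in the 3 comparisons, a point per gene, filled where called (red higher, blue lower). The point furthest right in PH-CM against UNX is Pla2g7 at 4.09. The next is Mgst2, whose UNX libraries were all below the level of the filter on low counts. The point furthest left in PH-CM against CO-CM is Hpgd at -2.26.

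Among the genes that remove or export the mediators, Hpgd was called in opposite directions under the 2 media. It encodes the 15-hydroxyprostaglandin dehydrogenase that inactivates prostaglandins, and stood at 6.76, 5.75 and 5.59 CPM in UNX, at 12.3, 15.5 and 13.2 CPM in CO-CM and at 3.06, 2.61 and 2.88 CPM in PH-CM, with no overlap between the groups. It rose by 1.18 in CO-CM against UNX (FDR 6.43e-06), fell by 1.08 in PH-CM against UNX (FDR 1.63e-05) and was lower in PH-CM than in CO-CM by a log2 fold change of -2.26 (FDR 5.82e-07). Cyp4f18, a leukotriene B4 hydroxylase, rose by 1.64 in PH-CM (FDR 4.13e-05) and by 2.57 in CO-CM (FDR 1.87e-06), each against UNX. Abcc1, a transporter that exports leukotriene C4, fell by 0.61 in CO-CM against UNX (FDR 4.01e-05) and was higher in PH-CM than in CO-CM by 0.76 (FDR 3.1e-05). Over this list 7 of 10 genes were called in PH-CM against UNX, 6 in CO-CM against UNX and 3 in PH-CM against CO-CM (4 with the replicate block, through Slco2a1 at 0.51, FDR 0.0385), near the 63.0%, 57.0% and 27.1% of all genes.

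Of 14 receptors 6 passed the filter, and the receptors for thromboxane, leukotriene B4, prostaglandin D2 and prostaglandin F were among the 8 that did not. Ptger2, which encodes the prostaglandin E2 receptor EP2, stood at 2.72, 2.98 and 3.13 CPM in UNX, 15.9, 16.5 and 16.1 CPM in CO-CM and 16.1, 15.0 and 16.2 CPM in PH-CM. It rose by a log2 fold change of 2.42 in PH-CM (FDR 1.94e-09) and of 2.45 in CO-CM (FDR 6.79e-09) against UNX, and the interval of the difference between the media ran from -0.19 to 0.12. Ptger4, for the EP4 receptor, rose by 1.18 in CO-CM against UNX (FDR 6.74e-05), while in PH-CM it fell by 0.52 against UNX (FDR 0.0138) and was lower than in CO-CM by -1.70 (FDR 2.45e-05). The fall of Ptger4 against UNX was not called without PH-CM replicate 3, at -0.43 (FDR 0.0587). Cysltr1, a receptor for cysteinyl leukotrienes, fell by 0.92 in CO-CM against UNX (FDR 0.00131) and was higher in PH-CM than in CO-CM by 1.02 (FDR 0.00181), with a log2 fold change of 0.10 in PH-CM against UNX (95% confidence interval -0.31 to 0.51).

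Ptgir, the prostacyclin receptor, fell by 0.54 in PH-CM against UNX (FDR 0.0015), and by 0.35 against CO-CM (FDR 0.0383), a call that was lost with library size alone (FDR 0.0599) and without CO-CM replicate 1, 2 or 3 or PH-CM replicate 2 or 3 (FDR 0.0613 to 0.117). In CO-CM against UNX it was not called (-0.20, FDR 0.147) except without UNX replicate 3, at -0.30 (FDR 0.0498). Ptger1, for the EP1 receptor, stood at 0.51 in PH-CM against UNX (FDR 0.0202), with 1 of 3 UNX libraries over the 1 CPM of the filter, which it passed through the treated groups. That call was lost with no filter (FDR 0.117) and without UNX replicate 1 (FDR 0.077) or PH-CM replicate 3 (FDR 0.0505), and the gene was not called in the other comparisons. Ptger3, for the EP3 receptor, was not called in any comparison of the main fit, with log2 fold changes of -0.49 in PH-CM and -0.42 in CO-CM against UNX, although without UNX replicate 3 it was called lower in both, at -0.74 and -0.68. Its CO-CM libraries were all under the 1 CPM of the filter. Of 5 genes whose proteins bind the Ptgs2 message, 4 were called in PH-CM against UNX (63.0% of all genes), with 3 higher (31.3%) and 1 lower. Of the same 5, 4 were called in CO-CM against UNX (57.0%), where Ptgs2 was not called, 2 of them higher and 2 lower, and 1 was called in PH-CM against CO-CM (27.1%). Zfp36, which encodes tristetraprolin, a protein that promotes decay of such messages, rose by 1.44 in PH-CM (FDR 5.81e-06) and by 1.25 in CO-CM (FDR 2.12e-05) against UNX. Its relative Zfp36l1 was higher in PH-CM than in CO-CM by 1.02 (FDR 0.00149). Elavl1, for the stabilizing protein HuR, fell by 0.59 in PH-CM (FDR 2.78e-05) and by 0.61 in CO-CM (FDR 2.54e-05) against UNX.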

How the data were processed

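After trimming by AfterQC, the authors mapped the reads to GRCm38 (STAR 2.6.0c) and assigned them to exons (featureCounts 1.6.2). The deposited counts are unnormalized whole numbers of reads for each gene. No option for strand or read pairs is given, and between 81.4% and 83.8% of counts under 20 were even. The deposited RPKM values are these counts scaled to exon length and library total, with no TMM factor. The authors' comparison tables, which hold log2 fold changes and p-values, were not used. Genes over 1 CPM in 3 or more libraries were fitted with edgeR 4.0.16 (TMM, quasi-likelihood, R 4.3.3), all 9 libraries in 1 fit with a mean per group, after a test on simulated counts. Shares were compared by exact permutation. The alternatives were DESeq2 1.42.0, the exact test, other scalings, filters and fold thresholds, 2 groups alone, a replicate block, counts divided by 2, and each library left out.

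Groups and replicate numbers come from the labels. Same-numbered libraries deviated together (correlation between 0.276 and 0.484 in every pair), although the labels tie no number to a repeat of the experiment. The printed FDRs, standard errors, intervals and permutation tests are unpaired, and values from the fit blocked on replicate number stand beside them where a call changes. The chi-square per gene between replicates was at least 8.91, so none is a duplicate. The paper reports that the experiment was repeated and describes the data as biological triplicates. Were any replicates not separate cultures, p-values would measure technical spread.

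The genes, lists and markers were chosen with earlier results of these data known. Beyond the 10 genes, the text names every receptor tested, and from each other list the called gene with the largest rise and the largest fall in each comparison. For likeness, up to 3 closest genes are named. Coordinates follow GENCODE M21. Proteins were not analysed here.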

Additional observations from a re-analysis of the deposited data

How the results depend on the processing

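Read depth was high, and the limits lie in 3 libraries a group, in Ptgs2, Ptges, Alox5 and Ltc4s being counted at few reads in some groups, and in strand being unresolved where Ltc4s, Ptgs1, Alox5ap and Tbxas1 share exonic bases with antisense genes. Most results kept their direction and their side of the threshold. Over the 10 genes and 3 comparisons, 587 values under an alternative did so, 19 passed the threshold newly, 12 lost it and 12 changed sign. Replacing TMM moved the median of all genes by less than 0.1 on the log2 scale.

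With the replicate block, 5 in place of 4 of the 10 genes were called in PH-CM against CO-CM, through Ltc4s (log2 fold change -0.57), and no other call among them changed. Over all genes the block also raised the number called. It was 3632 in place of 3244 in PH-CM against CO-CM, 7714 in place of 7534 in PH-CM against UNX and 7037 in place of 6806 in CO-CM against UNX. Among the other pathway genes Ephx1 (CO-CM against UNX) and Slco2a1 (PH-CM against CO-CM) were newly called. A fold change of 2 left 3 of the 10 genes and 2153 genes in all called in PH-CM against UNX, 1 and 612 in PH-CM against CO-CM, and 1655 genes in all in CO-CM against UNX, since it is a stricter threshold. Leaving out a library gave 5 to 6, 4 to 5 and 4 to 5 of the 10 genes in PH-CM against UNX, CO-CM against UNX and PH-CM against CO-CM. The numbers over all genes then ran from 7222 to 7558, from 6440 to 6757 and from 2764 to 3376. In CPM in place of RPKM, the Ptgs2 share differed by 29.6 percentage points (PH-CM against UNX) and 28.9 (PH-CM against CO-CM), the Ptges share by 0.909 (PH-CM against UNX) and 0.811 (CO-CM against UNX), and the Ltc4s share by -0.702 (PH-CM against UNX) and -0.866 (PH-CM against CO-CM), because the genes differ in length.

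The sign changes concerned values that were not called. In CO-CM against UNX, Ptgs1 was 0.05 with upper-quartile factors, and Lta4h was -0.04 with library size alone, -0.0086 with no filter and -0.0014 with filterByExpr. Leaving out a library gave -0.15 to 0.07 for Ptgs1, -0.11 to 0.55 for Ptgs2, -0.01 to 0.26 for Ltc4s and -0.01 to 0.06 for Lta4h in that comparison, -0.23 to 0.0050 for Pla2g4a, -0.05 to 0.0042 for Ptger2 and -0.14 to 0.08 for Ptger3 in PH-CM against CO-CM, and -0.04 to 0.22 for Cysltr1 in PH-CM against UNX. It gave -0.732 to 2.03 points for the Ptgs2 share and -0.173 to 1.80 for the Ltc4s share in CO-CM against UNX, and -0.0117 to 0.234 for the Ptges share in PH-CM against CO-CM. The cause of these changes was not tested.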
